A study of Mus musculus with 22 samples.

Results

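The ErbB receptors and their ligands were followed in the anterior cingulate cortex (ACC) of mice in which the pathway from the basolateral amygdala (BLA) to the ACC had been activated repeatedly. The 9 genes were chosen by name: the 4 receptors Egfr, Erbb2, Erbb3 and Erbb4, the 4 neuregulins Nrg1, Nrg2, Nrg3 and Nrg4, and Hbegf, which codes for heparin-binding EGF-like growth factor. They are 9 of the 37786 genes in the count table, and all 9 were among the 17524 genes that reached 10 counts in at least 10 mice and were therefore tested.

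ErbB receptors are tyrosine kinases that span the cell membrane and signal in pairs. A ligand of the epidermal growth factor (EGF) family binds the outer part, the receptors dimerise, and their inner tails are phosphorylated and recruit adaptors that feed the Ras/MAPK and PI3K/Akt cascades. Egfr binds EGF-like ligands including the product of Hbegf, Erbb3 and Erbb4 bind neuregulins, Erbb2 has no ligand of its own and serves as a partner of the others, and the kinase of Erbb3 is weak, so that it depends on its partner. In the cortex Erbb4 is known from interneurons, Erbb3 from the oligodendrocyte lineage and Egfr from astrocytes and progenitors, while Nrg1 and Nrg3 are made largely by neurons.

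All animals were adult male wild-type C57BL/6J mice, 8 weeks old when the procedures began, and every one carried channelrhodopsin-2 (AAV5-CaMKIIa-ChR2(H134R)-EYFP) in the BLA of both hemispheres and an optic fibre in the ACC. The CaMKIIa promoter is used to drive expression in excitatory neurons. The 10 stimulated mice received blue light in 9 sessions and the 12 controls the same handling with no light, and RNA was sequenced from bulk ACC tissue, with 1 library per mouse. The labels number the libraries, with controls at 1 to 6 and 12 to 17 and stimulated mice at 8 to 11 and 18 to 23, so the mice fall into 2 runs of library numbers: 1 to 11 (6 control and 4 stimulated) and 12 to 23 (6 and 6). The labels do not say what a run stands for.

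Total counts ranged from 23090483 to 43668462 per mouse. Markers of excitatory neurons, inhibitory neurons, astrocytes, microglia, oligodendrocytes and their progenitors were all detected, and no marker of the 10 cell type lists used was at 0 in every mouse. Controls 9 and 11, both in run 12 to 23, stood apart with the highest oligodendrocyte marker levels, and the summed level of the 12 oligodendrocyte markers spanned 3266 to 20043 counts per 1000000 library counts (CPM) in controls against 2400 to 5885 CPM in stimulated mice. The mean share of counts from the mitochondrial genome was 2.66% in run 1 to 11 and 1.32% in run 12 to 23, and it was 2.19% ± 1.24 in the 12 controls and 1.61% ± 0.651 in the 10 stimulated mice (SD). Because the tissue is bulk, fewer cells of a type and less RNA per cell cannot be told apart in any value given here.

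The receptor genes lie on 3 mouse chromosomes (GRCm38, GENCODE M21). Egfr is on the plus strand at chr11:16752203-16918158, Erbb2 on the plus strand at chr11:98412470-98437716, Erbb3 on the minus strand at chr10:128567523-128589652 and Erbb4 on the minus strand at chr1:68032186-69108059. Of the ligand genes, all on the minus strand, Nrg1 is at chr8:31814551-32884029, Nrg2 at chr18:36017652-36197380, Nrg3 at chr14:38368952-39473088, Nrg4 at chr9:55220222-55326844 and Hbegf at chr18:36504927-36515805. The values cover all annotated exons of a gene, 3139 exonic bases in Nrg2 and 12355 in Erbb4 being the extremes. Exons of 3 members overlap genes on the other strand: Erbb2 shares 9 bases with Mien1, Nrg1 shares 482 bases with the noncoding Gm26578, and Nrg4 shares 368 bases with Fbxo22 and 177 with the pseudogene Gm15625. Whether strand was used in counting is not given in the sources used here, so reads in these stretches may belong to either gene.

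Compared per kilobase of exon, Nrg3, a neuregulin that binds Erbb4, had the highest mean level at 6.72 ± 1.92 CPM per kb (SD, n = 22). Hbegf followed at 4.46 ± 1.17, Erbb4 at 4.14 ± 2.09, Nrg2 at 2.28 ± 0.312, Egfr at 1.94 ± 0.745, Erbb3 at 1.59 ± 1.40, Nrg1 at 1.23 ± 0.169 and Erbb2 at 0.935 ± 0.399 CPM per kb. Nrg4 was the lowest at 0.153 ± 0.0375 CPM per kb, below Erbb2 in all 22 mice, and it rested on 15 to 59 counts per mouse. That step from Erbb2 to Nrg4 was the only one between neighbours in this order at which the ranges did not overlap. The order was not the same in both runs. In run 1 to 11 Hbegf led at 5.28 ± 1.06 CPM per kb (n = 10) and exceeded Nrg3 in 7 of the 10 mice, whereas in run 12 to 23 Nrg3 led at 8.25 ± 1.13 CPM per kb (n = 12) and exceeded the next gene, Erbb4, in all 12 mice. Erbb4 stood at 2.04 ± 0.154 CPM per kb in run 1 to 11, behind Nrg2, and at 5.88 ± 1.02 CPM per kb in run 12 to 23, ahead of Hbegf.

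**Figure D1:**
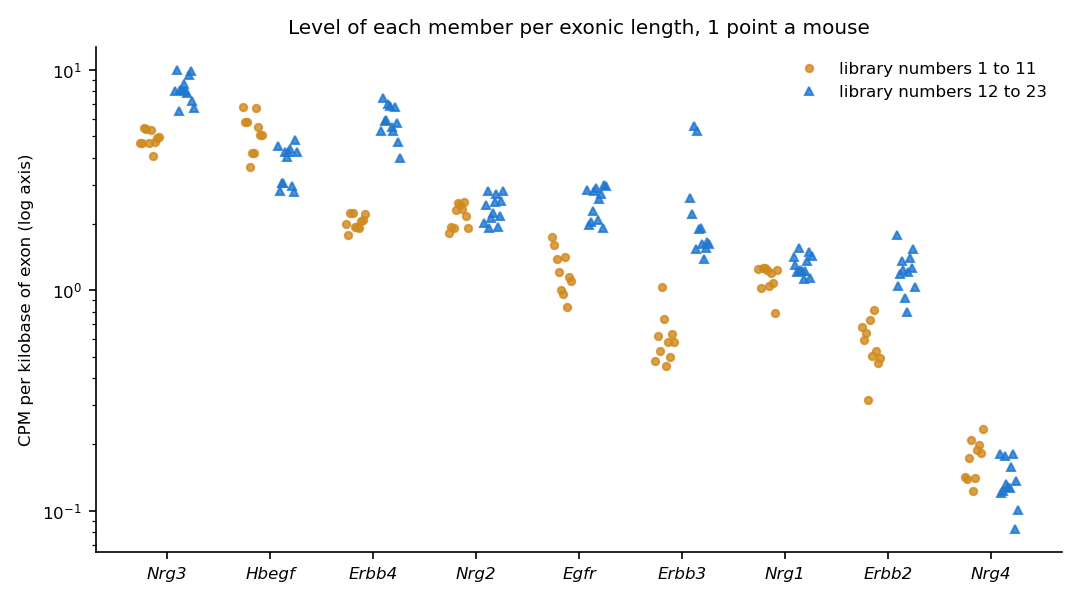
Level of each of the 9 genes in CPM per kilobase of exon (log axis), 1 point per mouse, with circles for library numbers 1 to 11 and triangles for 12 to 23, ordered by the mean over all 22 mice. Nrg3, Hbegf and Erbb4 are at the top and Nrg4 lies below every other gene in every mouse, while the points of Egfr, Erbb3, Erbb4 and Nrg3 form separate clouds for the 2 runs.

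The first comparison asked whether repeated activation of the pathway went with altered ErbB gene expression. With run as a covariate, 0 of the 9 genes passed an adjusted p of 0.05 in edgeR's quasi-likelihood test, set beside 0% of all genes tested, and 0 did in the DESeq2 Wald test, set beside 0.188%. At an unadjusted p under 0.05, edgeR picked out 1 of the 9, Erbb3, which was lower in stimulated mice. Among all 17524 genes 11.5% reached that unadjusted level, and 5.45% did so with a lower value in stimulated mice. The median log2 fold change was -0.05 over the 9 genes and 0.01 over all genes. CPM values of control and stimulated mice overlapped for every one of the 9. The mitochondrial share of counts was lower in stimulated than in control mice of both runs, at 2.25% against 2.93% in run 1 to 11 and 1.18% against 1.46% in run 12 to 23, and its part in the comparison was not tested.

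**Figure D2:**
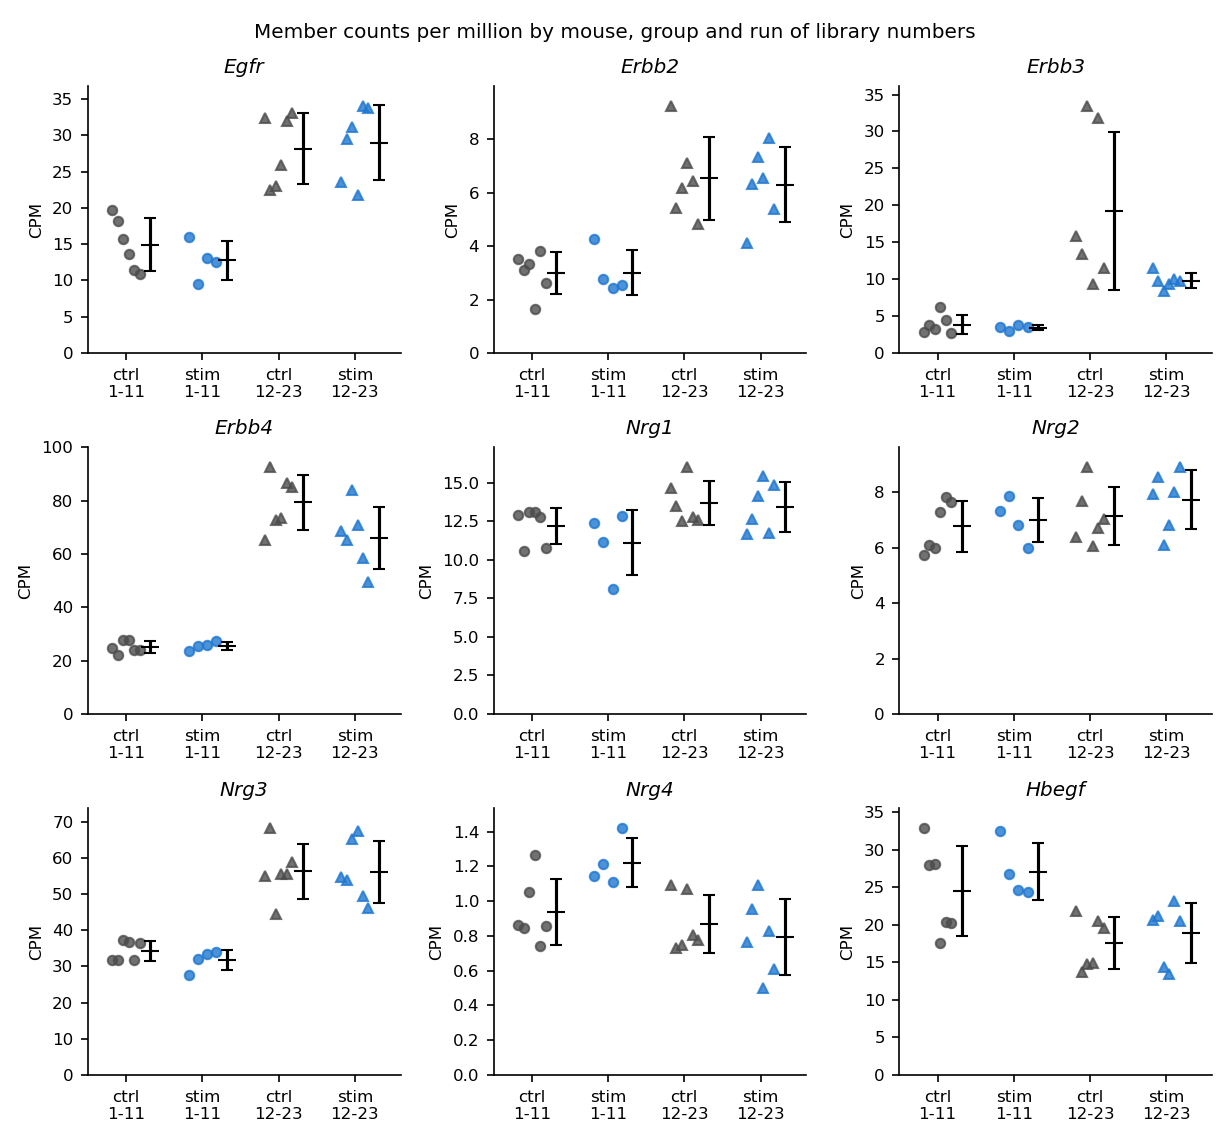
CPM of each gene by mouse, with grey for control (ctrl) and blue for stimulated (stim) mice, circles for library numbers 1 to 11 and triangles for 12 to 23. Black marks are the mean ± SD of each group of 4 or 6 mice. In the Erbb3 panel 2 controls of run 12 to 23 lie above 30 CPM, at 31.9 and 33.5, while the other 4 lie between 9.30 and 15.9.

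Erbb3, a neuregulin receptor that signals through its partners, was measured in run 12 to 23 at 9.30 CPM in the lowest, 14.6 at the median and 33.5 in the highest of 6 controls, and at 8.34, 9.76 and 11.5 CPM in the lowest, median and highest of 6 stimulated mice. All 6 stimulated mice were below the control median, though the ranges overlapped. In run 1 to 11 the controls spanned 2.72 to 6.20 CPM with a median of 3.46, and stimulated mice 1 to 4 were at 3.49, 3.00, 3.80 and 3.52 CPM, inside that range. The log2 fold change with run as a covariate was -0.63 (SE 0.21, 95% interval -1.05 to -0.21, edgeR unadjusted p = 0.0051, adjusted p = 0.329). An exact permutation test of log2 CPM that moved the labels within runs, chosen after the data were seen, gave a difference of -0.49 and a two-sided p of 0.0310 over 194040 arrangements. Within run 12 to 23 the log2 fold change was -1.01 (edgeR adjusted p = 0.284) and within run 1 to 11 it was -0.15 (adjusted p = 0.962). With any 1 of the 22 mice left out the edgeR unadjusted p was 0.0019 to 0.0131, and the lowest adjusted p was 0.213. The log2 fold change in these 22 fits lay between -0.70 and -0.49. With controls 9 and 11 both left out it was -0.27 (95% interval -0.55 to 0.00, adjusted p = 0.644), and 7.73% of all genes then had an unadjusted p under 0.05, Erbb3 not among them at p = 0.0529.

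Markers of oligodendrocytes, the cells that make myelin, stood lower beside Erbb3. All 12, among them Mbp, which codes for a major myelin protein, had lower values in stimulated mice. They had log2 fold changes from -0.91 to -0.50, a median of -0.69 and unadjusted p under 0.05, where 5.45% of all genes were lower at that level, and 0 of them passed adjustment in edgeR or DESeq2. With controls 9 and 11 left out 2 of the 12 were lower at an unadjusted p under 0.05, beside 4.46% of all genes. A score was formed as the mean centred log2 CPM of the 12 markers. Stimulated mice differed from controls in this score by -0.96 within run 12 to 23, by -0.32 there without controls 9 and 11, and by -0.00 within run 1 to 11. The corresponding differences in Erbb3 log2 CPM were -0.80, -0.33 and -0.10. Subtracting the score from Erbb3 log2 CPM left differences of 0.16, -0.01 and -0.10 in the same order. The subtraction takes 1 log2 unit of Erbb3 for 1 unit of score, a ratio that was not fitted. Within run 12 to 23, Erbb3 followed the score over 12 mice with Pearson's r = 0.970 (permutation p = 1e-05, adjusted p = 0.0018) and Spearman's rho = 0.930 (permutation p = 1e-05, adjusted p = 0.0018), 1e-05 being the smallest p the permutations can give. Without the 2 mice farthest from the median score, r was 0.801 over 10 mice. Within run 1 to 11, r was -0.256 (permutation p = 0.476, adjusted p = 0.766) and rho -0.261 (permutation p = 0.4665, adjusted p = 0.745) over 10 mice, and r was -0.0159 without the 2 farthest. Run means and a group difference common to both runs were then subtracted. This gave r = 0.29 in run 1 to 11 and 0.96 in run 12 to 23. The group differences were unequal between the runs, so a common one leaves part of them in each. The 0.29 therefore cannot settle the sign within run 1 to 11. Both values in each pair come from the same libraries and share their depth and tissue composition, and the part that oligodendrocyte content has in the Erbb3 difference was not tested. The choroid plexus and ependyma list differed in the same direction, with 4 of 5 tested markers lower and 3 of them (Ttr, Clic6 and Foxj1) at an unadjusted p under 0.05, beside the same 5.45%. The mean choroid plexus and ependyma score was 0.57 in controls and -0.38 in stimulated mice of run 12 to 23, and -0.08 and -0.17 in run 1 to 11. In run 1 to 11 the 6 controls spread from -0.75 to 1.05, around the 4 stimulated mice at -0.67 to 0.14. The mean score of the 6 oligodendrocyte progenitor markers was also lower in stimulated mice of run 12 to 23, at 0.29 ± 0.10 against 0.48 ± 0.16 in controls (SD, 6 mice each), but not in run 1 to 11, at -0.40 ± 0.04 (4 mice) against -0.50 ± 0.15 (6 mice). The difference within run 12 to 23 was -0.20, and -0.12 without controls 9 and 11, which had high progenitor scores (0.59 and 0.71). For the choroid plexus and ependyma score it was -0.94, and -0.77 without them. Within run 12 to 23 4 of the 6 progenitor markers were lower at an unadjusted p under 0.05 and 0 passed adjustment in edgeR, where 7.79% of all genes were lower at the unadjusted level. The part of these cell types in the Erbb3 difference was not tested.

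**Figure D3:**
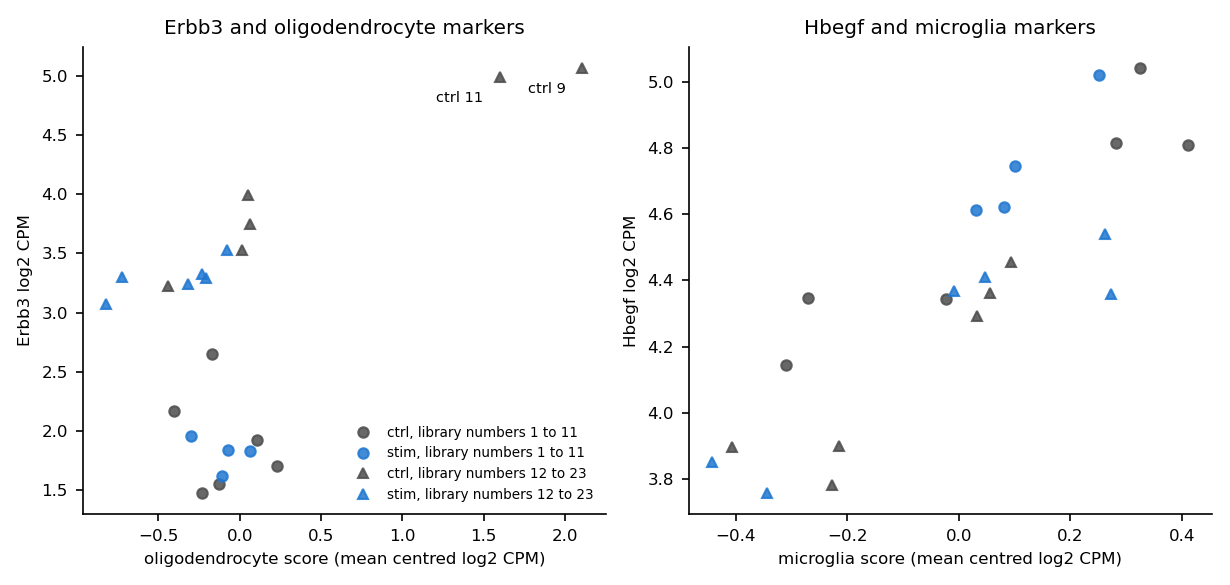
Left, Erbb3 log2 CPM against the oligodendrocyte score; right, Hbegf log2 CPM against the microglia score, with 1 point per mouse, grey for control and blue for stimulated mice, circles for library numbers 1 to 11 and triangles for 12 to 23. Triangles on the left climb with the score (r = 0.970) towards controls 9 and 11, the circles do not (r = -0.256), and on the right both sets climb (r = 0.910 and 0.901).

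Erbb4, the neuregulin receptor of interneurons, had a log2 fold change of -0.13 (95% interval -0.30 to 0.03, edgeR adjusted p = 0.5255). Its levels in run 12 to 23 were 65.2, 79.3 and 92.7 CPM in the lowest, median and highest control and 49.5, 66.8 and 84.0 CPM in the corresponding stimulated mice, with 5 of the 6 stimulated mice below the control median. In run 1 to 11 controls spanned 22.1 to 27.8 CPM and the 4 stimulated mice were at 23.6, 25.5, 25.8 and 27.4 CPM, so that neither run separated the groups. The fold change within run 12 to 23 was -0.29 (unadjusted p = 0.0206 in edgeR, adjusted p = 0.337) and within run 1 to 11 it was 0.04 (adjusted p = 0.981). The exact permutation test of Erbb4 gave two-sided p of 0.0606 within run 12 to 23, 0.667 within run 1 to 11 and 0.128 over both runs. Unadjusted p under 0.05 was reached by 12.5% of genes in the fit of run 12 to 23 and by 5.86% in that of run 1 to 11.

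Neither of the other receptors differed beyond the spread between mice. Egfr had a log2 fold change of -0.08 (95% interval -0.32 to 0.17, edgeR adjusted p = 0.834). In run 12 to 23 its levels ran from 22.5 to 33.0 CPM in controls and from 21.8 to 34.1 CPM in stimulated mice, and in run 1 to 11 from 10.9 to 19.8 and from 9.50 to 16.0 CPM. Erbb2, the common partner receptor, had a log2 fold change of -0.04 (95% interval -0.34 to 0.27, adjusted p = 0.946). Its levels were low, at 56 to 237 counts or 1.65 to 9.26 CPM over all mice.

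The 5 ligand genes had log2 fold changes between -0.08 and 0.12, with 0 of 5 at an unadjusted p under 0.05 in edgeR, 0 at an adjusted p and 0 at an adjusted p in DESeq2. Nrg1, which codes for many isoforms that act on Erbb3 and Erbb4, was at -0.08 (95% interval -0.25 to 0.09), Nrg2 at 0.09 (-0.10 to 0.27) and Nrg3 at -0.05 (-0.20 to 0.10). These 3 intervals lie within 0.3 log2 units of 0. Hbegf was at 0.12 (-0.12 to 0.36). Nrg4, the member with the fewest counts, was at 0.11 with the widest interval of the ligands (-0.24 to 0.45). Its 4 stimulated mice in run 1 to 11 were at 1.14, 1.21, 1.11 and 1.42 CPM, all above the control median of 0.860 CPM and 1 of them above the highest control at 1.26 CPM. The exact permutation test within that run gave a two-sided p of 0.0429 over 210 arrangements, against 0.446 within run 12 to 23 and 0.535 over both runs. In run 12 to 23 stimulated mice spanned 0.498 to 1.09 CPM and controls 0.728 to 1.09 CPM. The log2 fold changes of Nrg4 in the 2 runs, 0.40 and -0.18, had opposite signs, and neither passed adjustment in edgeR (adjusted p = 0.826 and 0.800).

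**Figure D4:**
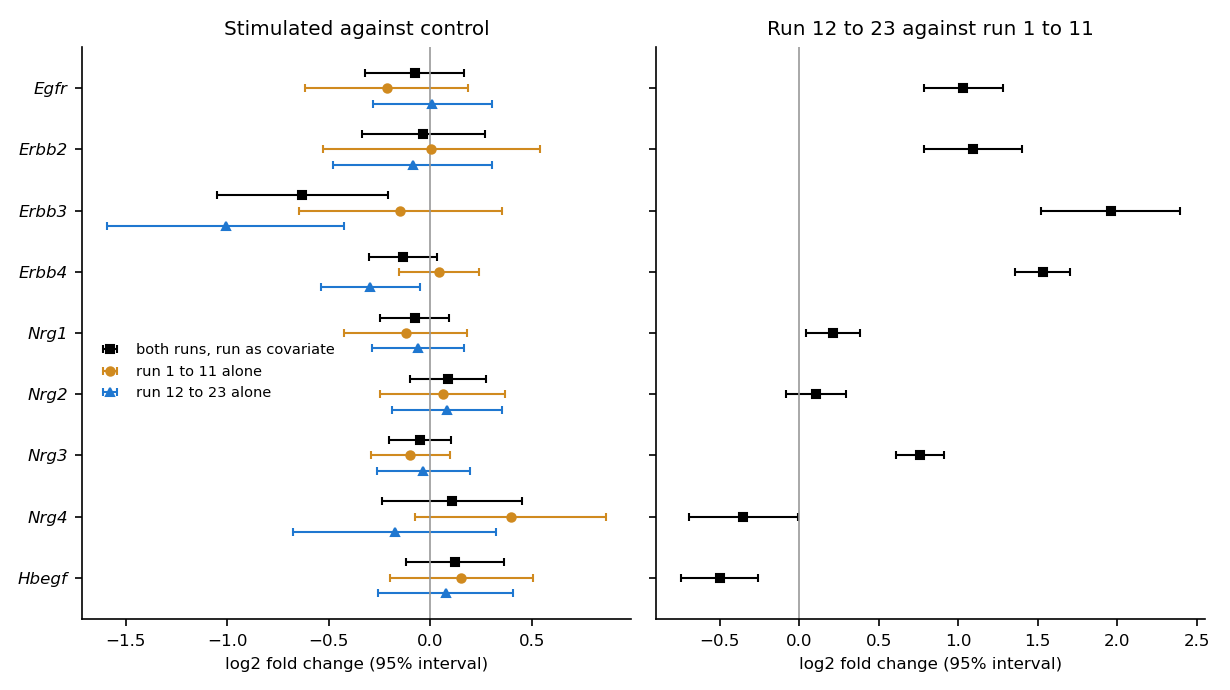
Log2 fold changes with 95% intervals, on the left for stimulated against control mice (black squares, both runs with run as a covariate; orange circles, run 1 to 11 alone; blue triangles, run 12 to 23 alone) and on the right for run 12 to 23 against run 1 to 11 with group as a covariate. On the left 2 of the 3 Erbb3 intervals, those of both runs together and of run 12 to 23, lie below 0, and on the right all 4 receptors lie above 0.

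Whether the effect of stimulation differed between the runs was tested as an interaction. It passed adjustment for 0 of the 9 genes in edgeR (0% of all genes tested) and for 0 in DESeq2 (0.0114% of all genes tested). At an unadjusted p under 0.05 there was 1, Erbb3, where 8.01% of all genes reached that level. The Erbb3 effect was more negative in run 12 to 23 by 0.81 log2 units (95% interval of the difference -1.61 to -0.01, adjusted p = 0.615), and this difference was -0.23 (-0.80 to 0.33) without controls 9 and 11. For Erbb4 the difference was -0.30 (-0.62 to 0.03) and for Nrg4 -0.52 (-1.19 to 0.15).

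The 2 runs of library numbers differed from each other far more than the groups did. With group as a covariate, 6 of the 9 genes were higher in run 12 to 23 at an adjusted p under 0.05 in edgeR, where 33.7% of all genes were higher, and 1 was lower, where 34.3% of all genes were lower. All 4 receptors were among those higher. The median log2 difference was 0.76 over the 9 genes, 1.31 over the receptors and -0.03 over all genes. Erbb3 differed most, by 1.96 (SE 0.21, adjusted p = 8.77e-09), from 2.72 to 6.20 CPM in run 1 to 11 against 8.34 to 33.5 CPM in run 12 to 23. Erbb4 was higher by 1.53 (SE 0.08, adjusted p = 3.91e-14), from 22.1 to 27.8 CPM against 49.5 to 92.7 CPM. Erbb2 was higher by 1.09 (SE 0.15, adjusted p = 4.29e-07) and Egfr by 1.03 (SE 0.12, adjusted p = 3.05e-08).

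Ligand genes did not share one direction between the runs. Nrg3 was higher in run 12 to 23 by 0.76 (SE 0.07, adjusted p = 1.4e-09 in edgeR), from 27.8 to 37.2 CPM against 44.6 to 68.3 CPM, and Nrg1 by 0.21 (SE 0.08, adjusted p = 0.0266). Hbegf was lower by 0.50 on the log2 scale (log2 difference -0.50, SE 0.12, adjusted p = 0.000526), from 17.6 to 32.9 CPM against 13.5 to 23.2 CPM, and its ranges overlapped. Nrg2 (0.11, adjusted p = 0.303) and Nrg4 (-0.35, adjusted p = 0.0648) did not pass. The ranges of the 2 runs did not overlap for Egfr, Erbb3, Erbb4 and Nrg3, all higher in run 12 to 23, which is 4 of 9 where 13.9% of all genes were higher without overlap. In the same contrast 2 of the 12 oligodendrocyte markers were higher and 0 lower after adjustment, with a median of 0.42, and 4 of 6 progenitor markers were higher and 1 lower, with a median of 1.03, where 33.7% of all genes were higher and 34.3% lower. The summed progenitor markers were at 75.2 to 96.6 CPM in run 1 to 11 and at 174 to 269 CPM in run 12 to 23. Mean scores in the same order were -0.22 and 0.19 for excitatory neuron and 0.01 and -0.01 for inhibitory neuron markers. They were -0.20 and 0.17 for astrocyte, -0.18 and 0.15 for endothelial and -0.37 and 0.31 for mural cell and fibroblast markers. Microglia markers were at 0.09 and -0.07, choroid plexus and ependyma at -0.11 and 0.10 and striatal projection neuron markers at 0.02 and -0.02. What part tissue composition, RNA quality or handling of the runs has in these differences was not tested.

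RefSeq promoter sequences (GRCm38.p6, 250 bases before to 50 after the annotated start, written 5′ to 3′ on the gene's strand) were at hand for 3 of the 4 receptor genes that were higher together in run 12 to 23. They are shown because these receptors differed together, with matches to the GC box GGGCGG, on either strand, in capitals. Egfr lies at chr11:16751953-16752252 on the plus strand, Erbb2 at chr11:98412234-98412533 on the plus strand and Erbb4 at chr1:69108010-69108309 on the minus strand.
Egfr: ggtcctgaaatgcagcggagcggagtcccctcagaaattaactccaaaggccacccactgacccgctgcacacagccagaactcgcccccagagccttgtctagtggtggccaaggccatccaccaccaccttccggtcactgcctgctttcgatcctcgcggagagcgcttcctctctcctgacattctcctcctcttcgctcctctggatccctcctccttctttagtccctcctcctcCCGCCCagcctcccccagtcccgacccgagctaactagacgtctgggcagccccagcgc
Erbb2: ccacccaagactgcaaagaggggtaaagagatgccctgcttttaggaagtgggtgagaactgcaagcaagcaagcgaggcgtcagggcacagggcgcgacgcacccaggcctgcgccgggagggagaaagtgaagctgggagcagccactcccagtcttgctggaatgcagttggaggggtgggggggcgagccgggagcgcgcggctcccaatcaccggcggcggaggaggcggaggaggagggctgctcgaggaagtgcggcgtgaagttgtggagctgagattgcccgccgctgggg
Erbb4: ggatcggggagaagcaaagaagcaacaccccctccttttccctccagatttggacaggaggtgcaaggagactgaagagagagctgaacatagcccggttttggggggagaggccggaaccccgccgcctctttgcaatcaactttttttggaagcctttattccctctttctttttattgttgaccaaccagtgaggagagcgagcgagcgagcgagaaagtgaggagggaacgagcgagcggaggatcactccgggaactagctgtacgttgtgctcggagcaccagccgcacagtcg
The Egfr promoter held 1 match and the Erbb2 and Erbb4 promoters 0, where 35.7% of the 32851 RefSeq promoters of this length held at least 1. G and C made up 62.3% of the Egfr, 66.0% of the Erbb2 and 55.3% of the Erbb4 sequence, above the median of 52.7% over all promoters. Whether promoter sequence has a part in the difference between the runs was not tested.

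Within each run, the members were set against scores of 10 cell type marker lists, which made 180 relations, adjusted together. Only 3 had an adjusted p under 0.05 for Pearson's r: the one of Erbb3 with oligodendrocyte markers in run 12 to 23 given above, and those of Hbegf with microglia markers in both runs. Hbegf followed the 8 microglia markers with r = 0.901 over 10 mice in run 1 to 11 (permutation p = 0.00045, adjusted p = 0.027) and r = 0.910 over 12 mice in run 12 to 23 (permutation p = 0.00022, adjusted p = 0.0198). Spearman's rho was 0.903 (permutation p = 0.00068, adjusted p = 0.0551) and 0.797 (permutation p = 0.00293, adjusted p = 0.0879), and r without the 2 farthest mice was 0.793 and 0.912. Microglia scores of control and stimulated mice spanned -0.41 to 0.41 and -0.44 to 0.27, so the groups overlapped.

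Other relations did not pass adjustment but had the same sign in both runs. Hbegf went with astrocyte markers as well, with r = 0.833 and 0.749 in runs 1 to 11 and 12 to 23 (adjusted permutation p = 0.0908 and 0.0983), and opposite to excitatory neuron markers, with r = -0.854 and -0.384 (adjusted permutation p = 0.0591 and 0.583). Egfr had positive r with several lists of cells other than neurons: 0.811 and 0.574 with astrocyte markers in runs 1 to 11 and 12 to 23 (adjusted permutation p = 0.0983 and 0.351), 0.635 and 0.679 with microglia markers (0.351 and 0.298), 0.689 and 0.503 with endothelial markers (0.351 and 0.458) and 0.603 and 0.426 with mural cell and fibroblast markers. It ran opposite to inhibitory neuron markers, with r = -0.857 and -0.763 (adjusted permutation p = 0.0531 and 0.0983), and to excitatory neuron markers, with r = -0.734 and -0.463 (adjusted permutation p = 0.253 and 0.458). Hbegf and Erbb2 also had negative r with inhibitory neuron markers, at -0.611 and -0.458 for Hbegf and -0.536 and -0.490 for Erbb2. Differences between the lists were not tested. For Erbb4 and inhibitory neuron markers r was 0.562 and 0.416 (adjusted permutation p = 0.452 and 0.542), and for Nrg3 and excitatory neuron markers it was 0.503 and 0.587 (adjusted permutation p = 0.458 and 0.351). Erbb3 and the 6 progenitor markers had r = 0.350 and 0.806 (adjusted permutation p = 0.684 and 0.0591), the latter 0.492 without the 2 farthest mice. These values were also computed after run means and 1 group difference common to both runs had been subtracted, as a description with no test. In runs 1 to 11 and 12 to 23, r of Hbegf was then 0.92 and 0.84 with astrocyte markers and 0.91 and 0.90 with microglia markers. That of Egfr was 0.79 and 0.60 with astrocyte and 0.70 and 0.66 with microglia markers. With oligodendrocyte markers r of Egfr was 0.13 and -0.21, and with progenitor markers -0.02 and 0.10. With choroid plexus and ependyma markers it was 0.13 and -0.04. For Erbb3 it was 0.63 and 0.71 with progenitor markers, and with oligodendrocyte markers it was as given above. The group differences in Erbb3 and in the oligodendrocyte score were themselves unequal between the runs, so a common one leaves part of them in each.

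**Figure D5:**
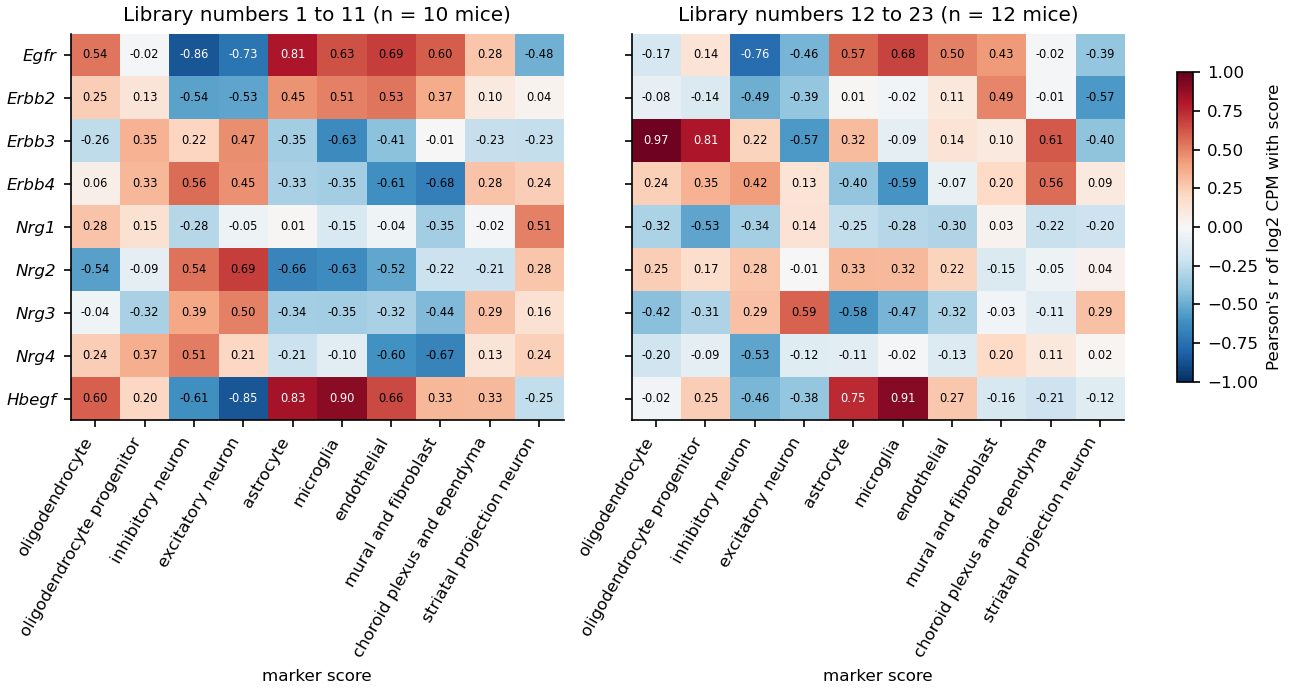
Pearson's r between log2 CPM of each gene (rows) and the score of each marker list (columns) within library numbers 1 to 11 (left, 10 mice) and 12 to 23 (right, 12 mice), from blue for -1 to red for 1. The Hbegf row is red under astrocyte and microglia in both panels, while the Erbb3 row is red under oligodendrocyte only on the right (0.97 against -0.26).

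To place each member among all genes, log2 CPM was stripped of run and group means and correlated over the 22 mice with every other gene tested that shares no exonic bases with it. These values are descriptions and carry no test, since the genes share libraries, depth and tissue composition. The closest genes to Egfr were Pdlim5 (r = 0.888), Rnase4 (0.854) and 2900052N01Rik (0.853). Those closest to Erbb3 were Plekhh1 (r = 0.878), Ccp110 (0.876) and Galnt6 (0.868). Erbb4 was nearest to Fam196b (r = 0.766), Dgki (0.758) and BC035947 (0.755), and Erbb2 to Abcc1 (r = 0.730), Gm43279 (0.725) and Zic2 (0.720). Of the ligands, Hbegf had the highest values of any member, with AI464131 (r = 0.949), Fads2 (0.944) and Kcnj16 (0.943), followed by Nrg3 with Arfgef3 (r = 0.889), Ckap5 (0.864) and Nyap2 (0.863). Nrg1 was nearest to Gm30400 (r = 0.741), AC118208.1 (0.685) and Pvr (0.670), Nrg2 to Mrpl4 (r = 0.711), Cyb561a3 (0.706) and Cfap161 (0.703), and Nrg4 to Ago3 (r = 0.721), 0610010K14Rik (0.695) and Cttnbp2nl (0.692). Among the members themselves, the highest values were those of Egfr with Hbegf (r = 0.69), a receptor and one of its ligands, and of Erbb4 with Nrg3 (r = 0.63), likewise a receptor and one of its ligands. The lowest was that of Nrg3 with Hbegf (r = -0.52). Other receptor and neuregulin pairs went either way. Among them, Erbb3 had r = -0.27 with Nrg1 and 0.33 with Nrg2. Erbb4 had r = -0.06 with Nrg1, -0.34 with Nrg2 and 0.35 with Nrg4.

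Lists of 41 further genes of the pathway were examined in the comparison of stimulated with control mice, of which 39 were tested. After adjustment 0 were higher and 0 lower in edgeR, as in DESeq2. At an unadjusted p under 0.05, 3 were higher and 2 lower, that is 5 of 39 where 11.5% of all genes reached that level, and the median log2 fold change was 0.00 against 0.01 over all genes. The member of these lists with the largest difference was Erbin, whose product binds Erbb2 and postsynaptic scaffolds, at -0.50 (SE 0.15, unadjusted p = 0.00331 in edgeR, adjusted p = 0.329). Erbin was at -0.70 within run 12 to 23, at -0.28 within run 1 to 11 and at -0.29 without controls 9 and 11. The other 3 synaptic scaffold genes, Dlg2, Dlg3 and Dlg4, had unadjusted p above 0.05.

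Of the 16 adaptors and kinases downstream of the receptors, 10 had a positive and 6 a negative log2 fold change, where 9222 of all 17524 genes had a positive one. In each direction 1 had an unadjusted p under 0.05, and 0 passed adjustment in edgeR. Over all genes 6.05% were higher and 5.45% lower at the unadjusted level, 11.5% in all, and the counts in this list and the next 2 are read against these shares. Gab1, a docking protein for receptor tyrosine kinases, was at -0.32 (SE 0.12, adjusted p = 0.353 in edgeR) and at -0.13 without controls 9 and 11, and Mapk3, which codes for the kinase ERK1, was at 0.21 (SE 0.08, adjusted p = 0.353). Among 9 genes for cleavage of ligands and receptors, which include the neuregulin sheddases Bace1 and Adam17, 1 had an unadjusted p under 0.05. This was the γ-secretase gene Psen2 at 0.14 (SE 0.06, adjusted p = 0.428), and Aph1a, of the same complex, had the largest size at -0.14 (adjusted p = 0.735). Among 7 negative regulators 1 did, Rnf41, a ubiquitin ligase that acts on Erbb3, at 0.12 (SE 0.05, adjusted p = 0.399). Of the other EGF family ligands Egf, Tgfa and Btc were tested and Areg and Epgn did not reach the count minimum. The largest difference there was that of Egf at -0.23 (95% interval -0.66 to 0.20, adjusted p = 0.690).

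Between the runs, 27 of these 39 genes were higher in run 12 to 23 and 2 lower at an adjusted p under 0.05 in edgeR, where 33.7% of all genes were higher and 34.3% lower, with a median log2 difference of 0.75 against -0.03 over all genes. All 7 negative regulators had a positive log2 difference and 5 of them passed, and 8 of the 9 cleavage genes had a positive one and 7 of them passed, beside the same 33.7% over all genes.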

How the data were processed

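RNA from bulk ACC of 22 mice had been sequenced with SMART-Seq v4 libraries. Per the submitters' processing notes and the study's methods, the authors used cutadapt 1.10 for trimming, STAR 2.5.3a for alignment (mm10) and htseq-count (HTSeq 0.6.1p1) for counting, and deposited whole-number counts. The deposited table also holds a signal that the authors made by dividing the counts by DESeq2 1.22.1 size factors, used in no test, and columns of their own comparison (fold changes and p-values), which were not used. All reported values were computed from the deposited counts, with groups, replicate numbers and library numbers taken from the labels. The table has 0 other columns of per-sample values. No 2 of the 231 pairs of libraries agreed within sampling noise (smallest mean chi-square per gene 10.9). Of 37786 identifiers, 37772 were found in GENCODE M21. Ereg was not analysed here.

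Genes that reached 10 counts in 10 or more mice were tested on the whole table with edgeR 4.0.16 in R 4.3.3 (TMM, glmQLFit, glmQLFTest, run of library numbers and group as terms) and Benjamini-Hochberg adjustment over the 17524 genes. The study's methods fitted batch and RNA integrity. RNA integrity values are not in the labels, and the run is the nearest term to a batch that they give. Fold changes are log2, standard errors were derived from the F statistic, and levels are TMM-scaled CPM (log2 with a prior count of 2). Correlation p-values came from 100000 permutations and group permutation tests were exact and two-sided. Methods were tested on simulated data. Alternatives were group as the only term, DESeq2 1.42.0 size factors or Wald test, other count minimums, a replicate block, each run alone and the omission of controls 9 and 11. The permutation test and the omission of each mouse in turn were chosen after seeing the data. The p-values measure the spread between these mice.

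The 9 genes, the lists, the tests and the choice of controls 9 and 11 were made with earlier results of these data known. The genes named are the 9 members, pathway genes with an unadjusted p under 0.05, the gene of each pathway list with the largest absolute log2 fold change, the 3 genes most correlated with each member, and marker genes where a member's result stands beside their list. Other genes are named only to say what a list holds.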

Additional observations from a re-analysis of the deposited data

Results flagged for a closer look

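Nrg1 in stimulated mouse 3 lay further below the rest of its group than a gap test at 95% (Dixon's ratio) allows. Its log2 CPM was 3.03, that is 8.13 CPM, against 3.49 in the next lowest of the 10 stimulated mice. Of 45 groups of values tested in this way it was the only one past the limit, and chance alone passes about 1 in 20. With any 1 mouse left out, the log2 fold change of Nrg1 stayed between -0.11 and -0.04.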

How the results depend on the processing

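In the comparison of stimulated with control mice, the number of the 9 genes and of the pathway genes past an adjusted p of 0.05 was 0 in edgeR and stayed 0 in each alternative that was run, the DESeq2 Wald test included. Of the 9, those lower at an unadjusted p under 0.05 numbered 1 (Erbb3), and became 0 with group as the only term, with controls 9 and 11 left out, in the replicate block without run and within library numbers 1 to 11, where the shares of all genes were those given below for lower genes, and 2 within library numbers 12 to 23 (7.79% of all genes), where Erbb4 joined Erbb3. For the difference between runs that number was 1 (3.23% of all genes), and became 0 without controls 9 and 11 (2.1%) and 2 with no count minimum (4.65%) and with at least 10 counts in every mouse (4.54%). The last setting also gave 2 members lower in run 12 to 23 after adjustment (37.8% of all genes), against 1 (34.3%). Of the pathway genes, 3 higher at an unadjusted p (6.05% of all genes) became 0 with group as the only term (0.999% of all genes), without controls 9 and 11 (3.27%) and within library numbers 1 to 11 (2.21%), and 1 with no count minimum (4.44%) and in the replicate block with run (6.09%). The 2 lower (5.45% of all genes) became 4 without controls 9 and 11 (4.46%), 1 in the replicate block with run (5.34%) and within library numbers 1 to 11 (3.65%), and 0 with group as the only term (2.61%) and in the replicate block without run (4%).

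Signs of log2 differences that had not passed adjustment turned as follows. With group as the only term Egfr was at 0.061, Erbb2 at 0.058 and Nrg3 at 0.033. In the replicate block without run Egfr was at 0.15, Erbb2 at 0.14, Erbb4 at 0.18 and Nrg3 at 0.087, and in the block with run Erbb2 was at 0.023. Within library numbers 12 to 23 Egfr was at 0.010 and Nrg4 at -0.18, and within 1 to 11 Erbb2 was at 0.0054 and Erbb4 at 0.042. The difference between runs for Nrg3 was -0.0098 without controls 9 and 11. With each of the 22 mice left out in turn, an alternative chosen after seeing the data, Erbb2 ranged from -0.13 to 0.025 and turned positive without control 7 (0.025) or stimulated mouse 5 (0.0093). The other 8 genes kept their sign, and Erbb4 had an unadjusted p under 0.05 in 2 of the 22 fits in edgeR. The cause was not tested in any of these.

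Erbb3 was at -0.67 with group as the only term (unadjusted p = 0.134), at -0.48 in the replicate block with run (p = 0.03) and at -0.08 in the block without run (p = 0.769), all in edgeR. The block covers replicates 1 to 10 only. Same-numbered mice were different animals and deviated together with a mean correlation of 0.308 (-0.367 to 0.635) that was 0.0299 (-0.217 to 0.279) once run was taken out, so the numbers do not pair the mice. The 4 receptors, Nrg3 and Hbegf kept their calls between the runs under every alternative, while Nrg1 was lost with at least 10 counts in every mouse (adjusted p = 0.113) and with no count minimum (adjusted p = 0.0577), and Nrg4 was called lower with at least 10 counts in every mouse (-0.42, adjusted p = 0.0171). Counts limit Nrg4 most, with 15 to 59 per mouse.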
